A study of Mus musculus with 31 samples.

Results

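Iron handling in the adult mouse hypothalamus was followed through 9 genes: Tfrc, Trf, Steap3, Slc11a2, Fth1, Ftl1, Slc40a1, Ireb2 and Aco1, out of 54532 genes in the count table. They were listed by name for their roles around the transferrin receptor. The set was picked because Tfrc had been lower in daughters than in sons of obesogenic dams, so that contrast is described here without a test. All 9 were found, and all 9 passed the filter on low counts.

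Cells take up most of their iron by binding transferrin at the transferrin receptor, internalising the complex, reducing the released iron in the endosome and passing it to the cytosol. Iron that is not used is held in ferritin, a shell of heavy and light chains, and surplus leaves through ferroportin. A pair of iron regulatory proteins couples these steps: when iron is scarce they bind stem-loops called iron-responsive elements, which protects the receptor mRNA from decay and blocks translation of the ferritin and ferroportin mRNAs. In the brain the receptor is a known marker of capillary endothelium and is also made by neurons, while transferrin is made mainly by oligodendrocytes and the choroid plexus.

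RNA from the hypothalamus of C57BL/6J offspring was sequenced in 31 libraries, grouped by maternal diet and by offspring sex. While pregnant and nursing, dams ate a control diet or a high-fat-high-sugar diet, called obesogenic. Pups of both kinds of dam were weaned onto chow on postnatal day 21, and every one of them, controls included, then ate the obesogenic diet for 4 weeks, starting at 3 months, before study at 4 months. The groups were 8 female and 8 male offspring of control dams, and 7 female and 8 male offspring of obesogenic dams. There was therefore no group that never ate the obesogenic diet. No label ties a library to an animal or a litter, and the p-values therefore measure the spread between libraries only. In bulk tissue, fewer cells of a type and less RNA per cell cannot be told apart.

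Libraries held 23118626 to 38547288 counted read pairs, so 1 pair was worth 0.0259 to 0.0433 CPM by library totals, which were also used for Xist. All other CPM are counts scaled to the size of the library by edgeR's TMM method. 5 libraries were in doubt. Control female 5, control male 6 and obesogenic female 3 had median correlations with the rest of 0.941, 0.943 and 0.950, against at least 0.967 for the others. Control female 7 carried Y-linked transcripts and almost no Xist (0.312 CPM), and control male 7 carried Xist and no pair from the Y-linked genes checked, against their labels. Markers of hypothalamic neurons summed to 289 CPM in control female 5 and to at least 1398 CPM in every other library. Values are therefore given with all libraries and, where they differ, for the 26 libraries that remain without these 5.

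The genes with a searchable iron-responsive element are shown first, because the element sets how a message answers to iron. The search looked in the untranslated regions of GENCODE M21 coding transcripts (build GRCm38), on the sense strand, for CNNNNNCAGTGN followed by 5 bases that pair with the 5 bases after the first C. Watson-Crick and G-T pairs were accepted. A match is a description of the letters, and the absence of one says only that these letters are not in these transcripts. 4 of the 9 genes held a match, beside 160 of 21901 coding genes (0.731%). In each line the capitals mark the CAGTGN loop.
Fth1, 5′ UTR, chr19:9982732-9982761, plus strand: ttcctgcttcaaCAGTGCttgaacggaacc
Ftl1, 5′ UTR, chr7:45459778-45459807, minus strand: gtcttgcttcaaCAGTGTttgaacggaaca
Slc40a1, 5′ UTR, chr1:45925464-45925493, minus strand: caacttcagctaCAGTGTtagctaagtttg
Tfrc, 3′ UTR, chr16:32631219-32631248, plus strand: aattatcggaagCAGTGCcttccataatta
Tfrc, 3′ UTR, chr16:32631598-32631627, plus strand: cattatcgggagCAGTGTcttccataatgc
Tfrc, 3′ UTR, chr16:32631663-32631692, plus strand: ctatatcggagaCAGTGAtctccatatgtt
Tfrc, 3′ UTR, chr16:32631710-32631739, plus strand: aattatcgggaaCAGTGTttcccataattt
Tfrc alone among the 9 held more than 1 match, with 4 in its 3′ UTR. Fth1, Ftl1 and Slc40a1 each held 1, before the coding sequence, which is the arrangement known for messages whose translation the regulatory proteins block.

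Per kilobase of gene length, the ferritin chains stood far above the rest. Over all 31 libraries Fth1, the ferritin heavy chain with ferroxidase activity, averaged 1719 ± 666 CPM per kilobase (SD, n = 31). Ftl1, the light chain that supports the iron core, averaged 144 ± 26.6 CPM per kilobase. The Fth1 level per kilobase was 11.7 ± 0.892 times that of Ftl1 over the 26 libraries (SD, n = 26).

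Tfrc, the receptor, came next at 18.5 ± 3.02 CPM per kilobase (SD, n = 31). Slc11a2, the divalent metal transporter that moves iron out of the endosome, was at 8.57 ± 0.896. Ireb2 and Aco1, the pair of iron regulatory proteins, were at 7.73 ± 1.07 and 7.58 ± 0.678. The mean of Slc11a2 lay above those of Ireb2 and Aco1 by about 1 SD, its ranges overlapped theirs, and no test of these levels was run. The ratio of Ireb2 to Aco1 per kilobase was 1.02 ± 0.131 (SD, n = 31).

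Steap3, the endosomal reductase that turns ferric into ferrous iron, averaged 2.24 ± 0.325 CPM per kilobase. Slc40a1, ferroportin, was lowest at 1.34 ± 0.315. Trf, transferrin, was at 3.67 ± 2.51 CPM per kilobase, but its place in this order is uncertain. In the deposited annotation 2108 of its 3320 exon bases (63.5%) also belong to Gm20425 on the same strand, and Gm20425 was at 0 pairs in all 31 libraries. Over the 1212 bases that Trf does not share, its level was 10.1 ± 6.87 CPM per kilobase (SD, n = 31), and pairs on the shared bases may not have been counted. Ftl1 shared 109 bases (8.13%) with 1 small gene, and the other 7 genes shared none. Fth1 and Ftl1 also have processed copies elsewhere in the genome, so their counts may miss pairs that could not be placed.

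Tfrc was lower in daughters than in sons of obesogenic dams, which is the difference it was picked for. Daughters had a lowest, median and highest level of 80.7, 98.8 and 122.0 CPM, and sons 106.5, 137.0 and 150.2 CPM. The groups overlapped: 1 son, at 106.5 CPM, lay below the 3 highest daughters, while the other 7 sons lay between 120.9 and 150.2 CPM. The means were 102 ± 15.1 CPM (SD, n = 7) and 134 ± 15.3 CPM (SD, n = 8). The fitted log2 difference, females minus males, was -0.39 ± 0.10 (SE). Across all 18743 genes fitted, 1145, Tfrc included, were lower in daughters by at least as much. That count goes by size alone and takes no account of the SE of each gene.

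**Figure D1:**
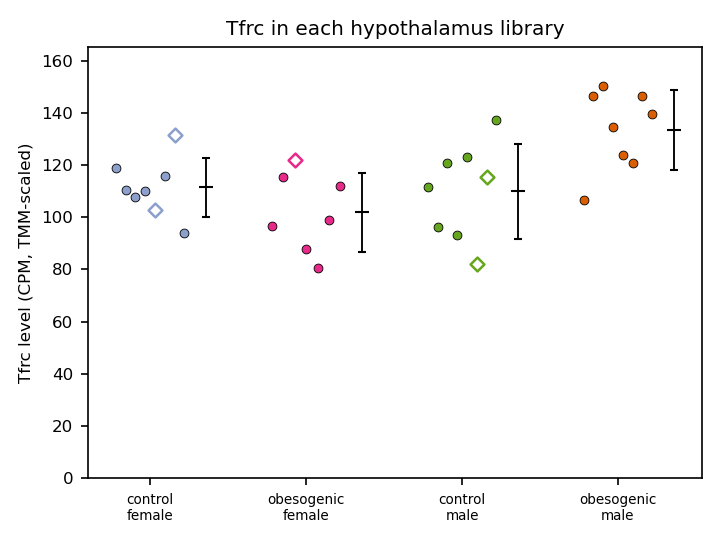
Tfrc level in each of the 31 libraries, in CPM after TMM scaling, by maternal diet and offspring sex. Open diamonds are the 5 libraries in doubt, and bars give the mean and SD of each group. Sons of obesogenic dams reach 150.2 CPM, and no daughter of such dams exceeds 122.0 CPM.

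The highest daughter, at 122.0 CPM, was obesogenic female 3, a library in doubt. Without the 5 libraries the next highest daughter was at 115.3 CPM, and the difference was -0.44 ± 0.09. Leaving out each library in turn gave -0.43 to -0.34. The lowest son, obesogenic male 1 at 106.5 CPM, and obesogenic female 1 at 96.6 CPM are the 2 libraries whose titles hold 2 numbers, the meaning of which is not stated. Without these 2 the difference was -0.42 ± 0.11.

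In the offspring of control dams the Tfrc levels of the sexes overlapped. Daughters had a lowest, median and highest level of 93.8, 110.3 and 131.7 CPM, and sons 81.9, 113.6 and 137.1 CPM. The highest and the lowest library were both sons. The highest daughter was control female 7, which carried Y-linked transcripts, and the lowest son was control male 6, both in doubt. The log2 difference, females minus males, was 0.019 ± 0.097, with a 95% interval of -0.18 to 0.22 (edgeR quasi-likelihood test, Benjamini-Hochberg adjusted p = 0.999). Without the 5 libraries it was -0.054 ± 0.096 (edgeR adjusted p = 0.9997). Daughters then ranged from 93.8 to 118.8 CPM and sons from 93.4 to 137.1 CPM.

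By maternal diet, the Tfrc differences had opposite signs in the sexes. In sons the obesogenic minus control difference was 0.28 ± 0.097 on the log2 scale, from a mean of 110.0 ± 18.2 CPM to 134 ± 15.3 CPM. In daughters it was -0.13 ± 0.10, from 111 ± 11.2 CPM to 102 ± 15.1 CPM. The difference between these diet effects was -0.41 ± 0.14, and -0.38 ± 0.13 without the 5 libraries. Each of these 3 values uses a group that chose the gene, so none is tested.

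The markers of cell types that could carry Tfrc were summed in the same libraries. All 14 endothelial markers were detected in every library, and their sum had a median of 557 CPM (527 to 619) in daughters and 558 CPM (435 to 636) in sons of obesogenic dams. For the 10 blood and erythroid markers, of which 7 were detected in every daughter and 6 in every son, the sums had medians of 251.7 CPM (140 to 419) and 315 CPM (192 to 525). The 10 choroid plexus markers summed to 91.0 CPM (79.0 to 138) and 88.4 CPM (72.5 to 99.9), and the 12 oligodendrocyte markers to 6933 CPM (5323 to 8640) and 7388 CPM (5495 to 9234). All 10 neuron markers were detected in every library, and their sum, like Tfrc, had its lowest group median in daughters of obesogenic dams, 6133 CPM (5896 to 6571), and its highest in sons of obesogenic dams, 6485 CPM (6087 to 6939). In offspring of control dams the neuron medians were 6242 CPM (5938 to 7903) in daughters and 6160 CPM (5715 to 6638) in sons. The oligodendrocyte medians were likewise lowest in daughters and highest in sons of obesogenic dams. They were 6959 CPM in daughters and 7021 CPM in sons of control dams. Without the 5 libraries the oligodendrocyte median was 7056 CPM in daughters of obesogenic dams and 6959 CPM in those of control dams. The ranges of daughters and sons of obesogenic dams overlapped in each of these 5 lists, no listed marker was at 0 in every library of either group, and the part of these cells in the Tfrc difference was not tested.

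Trf, the carrier that the receptor binds, had similar medians in the 4 groups, with single libraries far above or below. In offspring of control dams the lowest, median and highest levels were 5.001, 11.6 and 15.7 CPM in daughters and 7.43, 9.78 and 55.0 CPM in sons. In offspring of obesogenic dams they were 7.64, 9.75 and 12.8 CPM in daughters and 7.93, 10.6 and 14.4 CPM in sons. The groups overlapped throughout. The level of 55.0 CPM was that of control male 6 and the level of 5.001 CPM that of control female 5, both in doubt, and the other 29 libraries lay between 7.43 and 15.7 CPM.

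Control male 6 set the sign of the Trf differences. In sons the diet difference was -0.50 ± 0.30 with all libraries (edgeR adjusted p = 0.940) and 0.14 without control male 6. The sex difference in offspring of control dams was -0.39 ± 0.30 (edgeR adjusted p = 0.996) and 0.26 without that library. In daughters the diet difference was -0.21 ± 0.32 (edgeR adjusted p = 0.859), and -0.25 ± 0.16 without the 5 libraries.

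Steap3, the endosomal reductase, ranged from 7.14 to 16.2 CPM. Daughters of control dams had 11.8, 13.8 and 16.2 CPM as lowest, median and highest, and daughters of obesogenic dams 10.9, 12.5 and 14.9 CPM. Sons of control dams had 10.8, 12.6 and 14 CPM, and sons of obesogenic dams 7.14, 12.97 and 15.1 CPM. The last group was the most spread, with a coefficient of variation of 22.9% against 9.91% to 10.6% in the others, and all groups overlapped. The diet difference was -0.14 ± 0.12 in daughters and -0.041 ± 0.12 in sons (edgeR adjusted p = 0.743 and 0.970). The sex difference in offspring of control dams, 0.15 ± 0.12, was the most positive of the 9 genes there and did not pass the test (edgeR adjusted p = 0.996). Trf at -0.39 and Fth1 at -0.27 were larger in size. Without the 5 libraries Steap3 was at 0.24 and Trf at 0.33.

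Slc11a2, the endosomal iron exporter, varied little. Daughters and sons of control dams had medians of 53.3 CPM (43.1 to 57.1) and 55.5 CPM (35.2 to 58.4). Daughters and sons of obesogenic dams had medians of 53.2 CPM (50.1 to 61.7) and 59.6 CPM (53.3 to 64.0). The lowest library was again control male 6, and the groups overlapped. The diet difference was 0.057 ± 0.084 in daughters and 0.14 ± 0.081 in sons (edgeR adjusted p = 0.858 and 0.940), and the latter was 0.073 without control male 6.

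Fth1, the ferritin heavy chain, was the most abundant of the 9 genes. In offspring of control dams its levels were 761, 1524 and 1854 CPM in daughters and 1070, 1404 and 4336 CPM in sons, as lowest, median and highest. In offspring of obesogenic dams they were 1058, 1403 and 1677 CPM in daughters and 1095, 1435 and 1793 CPM in sons. The extremes were the same libraries as for Trf: control female 5 was lowest and control male 6 highest, and the group medians were close. In daughters the diet difference was -0.11 ± 0.21 and in sons -0.31 ± 0.20 (edgeR adjusted p = 0.901 and 0.940). In sons it was 0.026 without control male 6.

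Ftl1, the light chain, had medians of 194.5 CPM (177.6 to 240.4) in daughters and 189.9 CPM (162.6 to 344.7) in sons of control dams. In offspring of obesogenic dams the medians were 187.0 CPM (157.1 to 216.9) in daughters and 176.6 CPM (149.2 to 220.2) in sons. The groups overlapped, and the level of 344.7 CPM was that of control male 6. The diet difference was -0.13 ± 0.12 in daughters and -0.22 ± 0.11 in sons (edgeR adjusted p = 0.753 and 0.940), and -0.085 in sons without control male 6.

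Slc40a1, the iron exporter ferroportin, had the highest diet difference of the 9 genes in sons over 31 libraries and did not pass the test. Sons of control dams had 6.75, 10.3 and 16.3 CPM and sons of obesogenic dams 12.1, 13.3 and 17.5 CPM, as lowest, median and highest. 5 of the 8 sons of control dams lay below every son of obesogenic dams, and the groups overlapped in the rest. Without the 5 libraries in doubt it was 3 of 6. The difference was 0.33 ± 0.16, with a 95% interval of -0.0038 to 0.67 (edgeR adjusted p = 0.940), and 0.23 ± 0.16 without the 5 libraries, where that of Tfrc, also 0.23, was slightly higher. Daughters of control dams had 7.30, 11.1 and 13.9 CPM and daughters of obesogenic dams 8.32, 11.4 and 16.1 CPM. Their difference was 0.14 ± 0.17 (edgeR adjusted p = 0.825).

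Ireb2, the iron regulatory protein that is itself degraded when iron is plentiful, had medians of 73.9 CPM (61.5 to 87.6) in daughters and 77.6 CPM (42.3 to 86.4) in sons of control dams. In offspring of obesogenic dams the medians were 66.6 CPM (60.0 to 84.6) and 75.6 CPM (64.0 to 81.4). The lowest library was control male 6. The diet difference was -0.067 ± 0.11 in daughters and 0.071 ± 0.11 in sons (edgeR adjusted p = 0.876 and 0.944), and -0.013 in sons without control male 6.

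Aco1, the regulatory protein that doubles as a cytosolic aconitase when it holds an iron-sulphur cluster, had the lowest within-group SD of the 9 genes over 31 libraries, 0.13 on the log2 scale. Over the 26 libraries its coefficient of variation was 7.99%, against 7.53% for Slc11a2. Its medians were 32.8 CPM (27.2 to 37.6) and 34.9 CPM (28.1 to 36.8) in daughters and sons of control dams. In offspring of obesogenic dams they were 34.7 CPM (27.9 to 39.5) and 35.6 CPM (32.4 to 37.3). The groups overlapped. The diet difference was 0.079 ± 0.077 in daughters and 0.042 ± 0.074 in sons (edgeR adjusted p = 0.775 and 0.953), and 0.0017 in sons without control male 6.

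**Figure D2:**
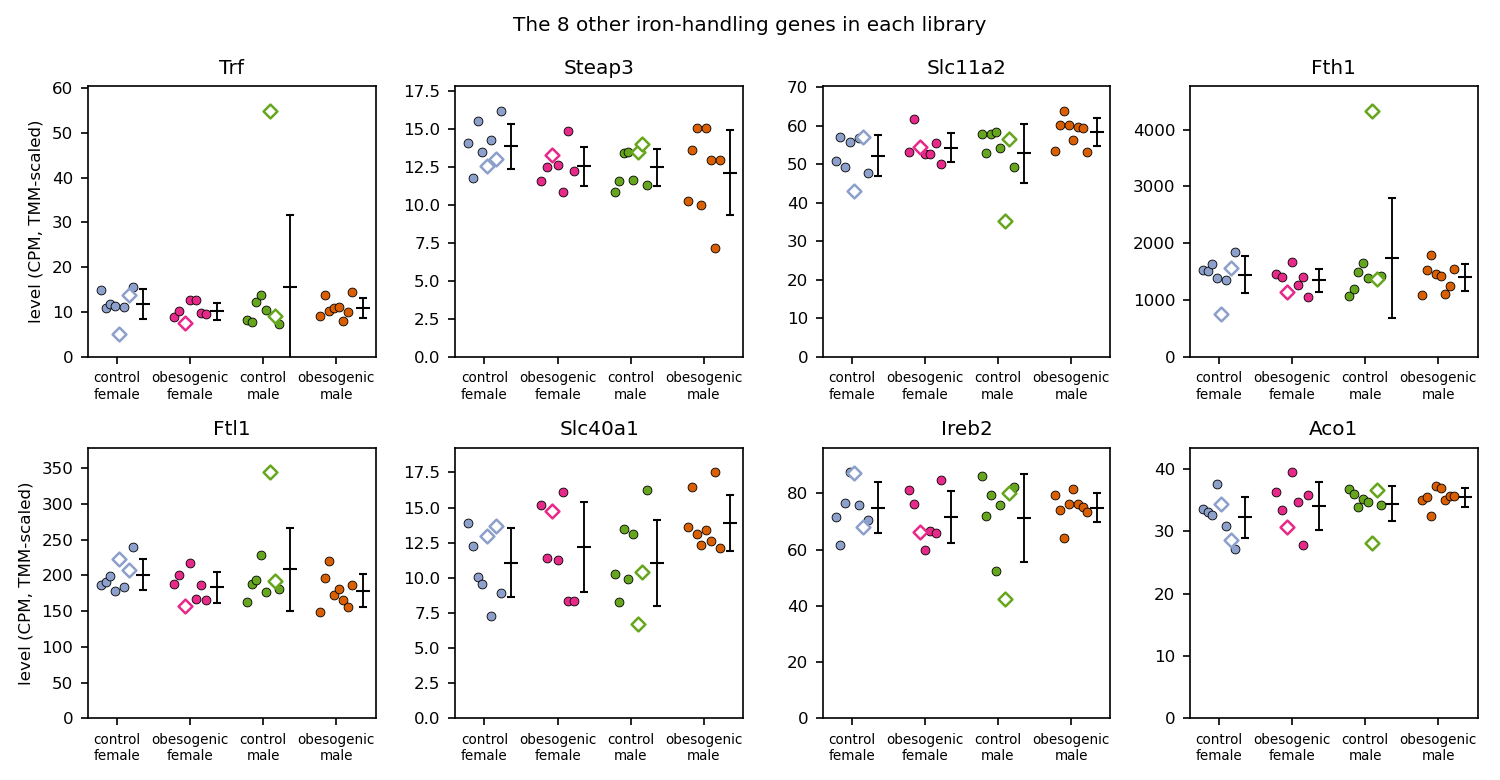
Levels of the 8 genes other than Tfrc in each library, in CPM after TMM scaling, with the mean and SD of each group and open diamonds for the 5 libraries in doubt. The diamond at 55.0 CPM of Trf, 4336 CPM of Fth1 and 344.7 CPM of Ftl1 is the same library, control male 6.

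In daughters of obesogenic against control dams, 3 of the 9 genes were higher and 6 lower, with a median log2 difference of -0.11, beside -0.013 over all genes tested. 0 of the 8 genes tested there passed an edgeR adjusted p of 0.05, where 0% of all genes did. 0 of the 8 reached an unadjusted p under 0.05, where 1522 of 18743 genes (8.12%) did. In sons, 5 were higher and 4 lower, with a median of 0.042 beside 0.0004 over all genes. Again 0 of 8 passed the edgeR adjusted threshold (0% of all genes), and 0 of 8 the unadjusted one (647 genes, 3.45%). Without the 5 libraries the split in daughters was the same, and in sons 8 were higher and 1, Ftl1, lower.

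Between daughters and sons of control dams, 4 of the 9 genes were higher and 5 lower, with a median of -0.016 beside -0.0039 over all genes. 0 of 9 passed the edgeR adjusted threshold (0% of all genes) and 0 of 9 the unadjusted one (823 genes, 4.39%). Sex-linked genes such as Xist were thus not called either, and 10 genes passed without the 2 libraries against their sex label. Without the 5 libraries, 0 of 9 passed and 11 genes of 18694 (0.0588%) did. Trf then had a difference of 0.33 ± 0.16 (edgeR unadjusted p = 0.0411, adjusted p = 0.9997). In the test of the diet effect in daughters minus that in sons, 0 of 8 passed the edgeR adjusted threshold (0% of all genes) and 0 of 8 the unadjusted one (679 genes, 3.62%). DESeq2 and limma voom also called 0 of the genes tested in these 4 comparisons, and over all genes they called 6, 1, 1 and 6 with DESeq2 and 0 with limma voom.

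Among offspring of obesogenic dams, 7 of the 9 genes were lower in daughters than in sons, and 2, Ftl1 and Steap3, were higher. The differences, females minus males, were -0.19 ± 0.17 for Slc40a1, -0.10 ± 0.084 for Slc11a2 and -0.10 ± 0.32 for Trf. They were -0.067 ± 0.11 for Ireb2, -0.059 ± 0.21 for Fth1 and -0.058 ± 0.077 for Aco1. Ftl1 was at 0.038 ± 0.12 and Steap3 at 0.050 ± 0.12. The median of the 9 was -0.067, beside -0.0040 over all genes. In this comparison edgeR called 0% of all genes, or 14 of 18694 (0.0749%) without the 5 libraries, and nothing is read from that for the genes that were picked from it. It called 12 with only these 2 groups fitted and 9 without the 2 libraries against their sex label. Xist was not called with all libraries, though by library totals it was at 204.9 CPM or more in these daughters and at most 0.0562 CPM in the sons. A share of 0% therefore does not mean that no gene differed. Tfrc had the lowest value of the 9, and the other 8 lay between -0.19 and 0.050.

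**Figure D3:**
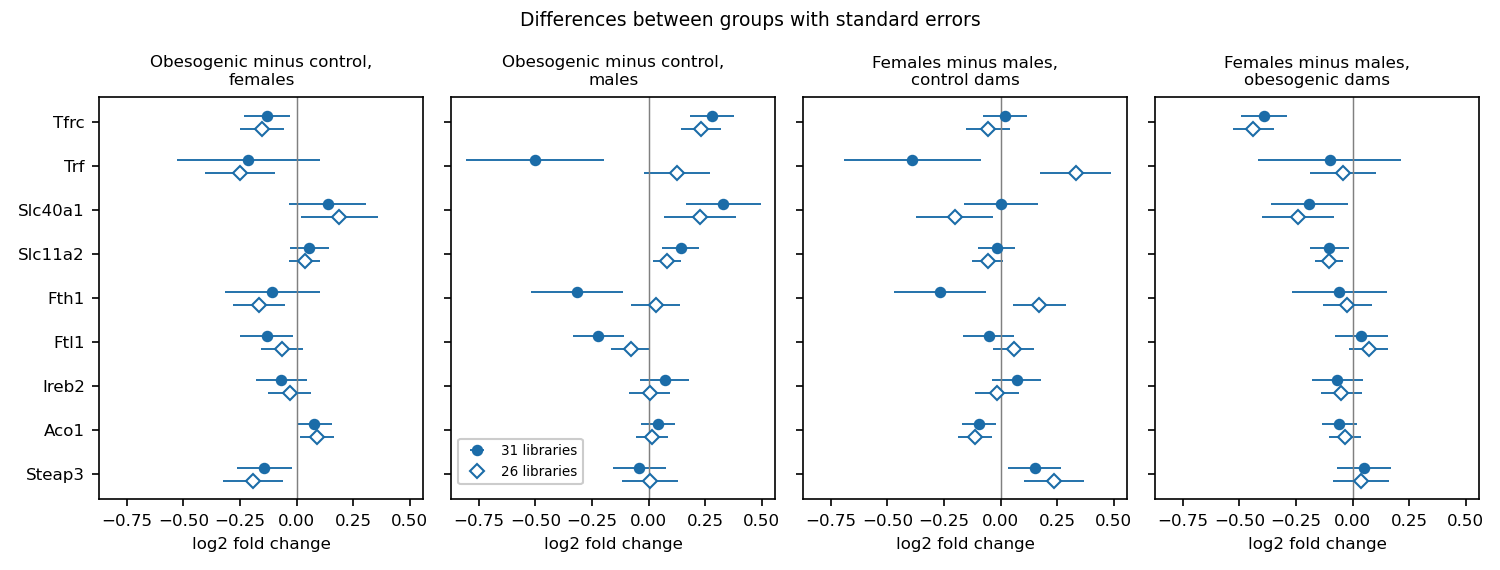
Log2 fold changes of the 9 genes in 4 comparisons, as points with standard errors, from edgeR. Filled circles use all 31 libraries and open diamonds the 26 without the libraries in doubt, and the Trf and Fth1 points of the diet comparison in sons change sign between them.

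The wider iron pathway was read from lists. The counts per list include any of the 9 genes that belong to that list, while the 82 below do not. Of the 89 listed genes that are not among the 9, 82 could be tested. In daughters by maternal diet 32 of these were higher and 50 lower (60.98% lower, beside 52.5% of all genes), and in sons 34 were higher and 48 lower (58.5% beside 49.9%). Without the 5 libraries the shares lower were 52.4% and 51.2%, beside 51.1% and 48.0% of all genes. 0 of the 82 passed the edgeR adjusted threshold in either sex, with or without those libraries. Values of single genes named from these lists use all 31 libraries unless stated, so their dependence on the libraries in doubt is not shown.

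The 16 genes of iron uptake include Trf, Slc11a2, Steap3 and Tfrc, the last not tested by diet. The lowest p in daughters by diet was that of Lcn2, an iron-siderophore carrier, at 1.57 ± 1.03 (edgeR adjusted p = 0.677). In sons it was that of Cybrd1, a ferric reductase, at -0.32 ± 0.17 (edgeR adjusted p = 0.940). Of 5 storage genes tested, Fth1 and Ftl1 included, 4 were lower in daughters and 3 in sons, or 4 and 2 without the 5 libraries. Pcbp2, a chaperone that delivers iron to ferritin, was at -0.14 ± 0.088 in daughters (edgeR adjusted p = 0.664). Of 3 export genes, Slc40a1 included, all were higher in daughters and 2 in sons. Heph, a membrane ferroxidase that works with ferroportin, was at 0.37 ± 0.23 and Cp, its soluble counterpart, at 0.16 ± 0.17 in daughters (edgeR adjusted p = 0.662 and 0.798). None of these passed.

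Of 10 genes of iron sensing, Ireb2 and Aco1 included, 4 were higher in daughters and 6 in sons, or 3 and 5 without the 5 libraries. Hfe, a partner of the transferrin receptor, was at -0.29 ± 0.14 in daughters (edgeR adjusted p = 0.601), and Neo1, a receptor that binds hemojuvelin, at 0.16 ± 0.10 (edgeR adjusted p = 0.662). Hamp and Hamp2, which encode hepcidin, did not pass the filter, with at most 0.142 and 0.310 CPM in any library. The 10 transcripts listed as carrying an iron-responsive element include Tfrc, Slc11a2, Fth1, Ftl1 and Slc40a1. Each diet comparison uses a group that chose Tfrc, so these counts are not separate from that choice. By diet in daughters 7 of the 10 were higher and 3 lower, with a median of 0.080. The counts were the same in sons, with a median of 0.11. Over the 26 libraries 7 and 8 were higher, with medians of 0.030 and 0.055. The sequence search found a match in 6 of these 10.

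Of 10 genes of receptor trafficking, 3 were higher by diet in daughters and 8 in sons. In the 26-library fit 5 were higher in daughters, with a median of -0.0019, and 8 in sons, with a median of 0.041. Rab11a, which returns the receptor to the surface, was at -0.16 ± 0.088 in daughters (edgeR adjusted p = 0.634), and Exoc6, an exocyst subunit of the same route, at 0.26 ± 0.13 in sons (edgeR adjusted p = 0.940). Between daughters and sons of obesogenic dams 9 of these 10 were lower, the largest share of any list. The median was -0.094 beside -0.0040 over all genes, and 8 of 10 were lower without the 5 libraries. Lower in the same comparison were 8 of 16 uptake, 2 of 5 storage, 1 of 3 export and 7 of 10 sensing genes. So were 7 of 10 transcripts listed with the element, 15 of 24 mitochondrial genes and 5 of 9 of haem synthesis. For haem breakdown it was 6 of 10 and for hypoxia 6 of 12. Of the 82 genes outside the 9, 58.5% were lower, beside 51.3% of all genes. That comparison is the one Tfrc was picked from, and no list was tested in it.

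Of 24 genes of mitochondrial iron and iron-sulphur clusters tested, 18 were lower by diet in daughters and 18 in sons, with medians of -0.10 and -0.079, and 14 were lower in each without the 5 libraries. Fdx1, a ferredoxin, was at -0.43 ± 0.17 in daughters (edgeR adjusted p = 0.549), and Iba57, a cluster assembly factor, at -0.28 ± 0.12 in sons (edgeR adjusted p = 0.940). Of 9 genes of haem synthesis, 5 were lower in daughters and 5 in sons, or 3 and 4 without the 5 libraries. Of 10 genes of haem breakdown and transport, 6 were lower in each sex, with Blvrb, a biliverdin reductase, at -0.46 ± 0.19 in daughters (edgeR adjusted p = 0.570). 7 of these 10 were lower in daughters and 4 in sons without the 5 libraries.

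Of 12 hypoxia-induced genes, 8 were higher by diet in daughters and 6 in sons, or 7 and 8 without the 5 libraries. Egln3, a prolyl hydroxylase that hypoxia induces, was at -1.06 ± 0.40 in daughters (edgeR adjusted p = 0.549) and at 1.36 ± 0.39 between daughters and sons of control dams (edgeR adjusted p = 0.625). Without the 5 libraries these values were -0.085 and 0.43. No gene of these lists passed in the comparisons tested.

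Covariation was read from log2 CPM after the group means were removed, over 36 pairs of the 9 genes, with permutation p-values adjusted by Benjamini-Hochberg over the pairs. Over 31 libraries, 7 pairs passed an adjusted 0.05 by both Pearson's r and Spearman's rho. Trf and Fth1 had r = 0.91 and rho = 0.80 (permutation p = 1e-05 for both, the smallest that the permutations can give, adjusted 0.00036). Without the 2 libraries farthest from the median of Trf, r was 0.74. Fth1 and Ftl1 had r = 0.76 and rho = 0.73 (permutation p = 0.00011 and 2e-05, adjusted 0.00132 and 0.00036). Without the 2 farthest, r was 0.84. So the ferritin chains and Trf were high or low in the same libraries.

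Trf with Ftl1 (r = 0.68, rho = 0.56, permutation adjusted p = 0.0362 and 0.0166) and Ftl1 with Steap3 (r = 0.44, rho = 0.51, permutation adjusted p = 0.0293 and 0.0314) were the other positive pairs. The 3 negative pairs all held Ireb2. Ireb2 had r = -0.73 with Trf, -0.76 with Fth1 and -0.70 with Ftl1, and rho = -0.56, -0.61 and -0.50. The permutation adjusted p-values of r were 0.00846, 0.00132 and 0.00994, and those of rho 0.02, 0.0084 and 0.0351. Without the 2 libraries farthest from the median of Trf, Fth1 and Ftl1 in turn, r fell in size to -0.49, -0.56 and -0.44. For Trf with Ftl1 and Ftl1 with Steap3, without the 2 farthest from the median of the first gene named, r was 0.60 and 0.44.

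No pair with Tfrc passed both. The closest, Tfrc with Slc11a2, had r = 0.49 and rho = 0.40 (permutation p = 0.00921 and 0.0323, adjusted 0.0368 and 0.0895). Its r was 0.31 without the 2 libraries farthest from the median of Tfrc and 0.24 over the 26 libraries. Tfrc with Fth1 had r = -0.26 and rho = -0.072 (permutation p = 0.248 and 0.700, adjusted 0.278 and 0.839). Tfrc with Trf had r = -0.36 and rho = -0.21 (permutation p = 0.0898 and 0.271, adjusted 0.150 and 0.465), and -0.033 without the 2 farthest.

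Over the 26 libraries 4 pairs passed both: Fth1 with Ftl1 (r = 0.89), Ftl1 with Steap3 (0.63), Trf with Fth1 (0.62) and Trf with Ftl1 (0.55). Their rho values were 0.90, 0.69, 0.64 and 0.57, with permutation adjusted p-values of r of 0.00036, 0.0208, 0.0208 and 0.0409. The 3 pairs with Ireb2 kept a negative r, of -0.47 with Trf, -0.56 with Fth1 and -0.61 with Ftl1, and did not pass both. The pairs with Fth1 and Ftl1 passed by r (permutation adjusted p = 0.0275 and 0.0208) and not by rho (0.136 and 0.112), and the pair with Trf passed by neither.

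An index of gene length was set beside these patterns. Fth1 and Ftl1 are short, at 866 and 1340 exon bases in the count table, and Ireb2 is the longest of the 9 at 9479 bases. The index of each library was made from other genes: the mean log2 CPM of 663 genes under 1500 bases minus that of 3995 genes over 6000 bases, relative to the mean library. It was 1.39 in control male 6 and between -0.58 and 0.42 in the other libraries. With group means removed, the index had r = 0.91 with Fth1, 0.89 with Trf, 0.84 with Ftl1 and -0.78 with Ireb2 over 31 libraries (rho = 0.89, 0.74, 0.74 and -0.64). The permutation p-values of r were 1e-05, 2e-05, 3e-05 and 0.00031, or 9e-05, 9e-05, 9e-05 and 0.000697 adjusted over the 9 genes. Without the 2 libraries farthest from the median of the index, r was 0.83, 0.74, 0.68 and -0.71.

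Steap3, at 5715 bases not a short gene, also passed by both measures, with r = 0.31 and rho = 0.42 (permutation p = 0.0298 and 0.0149, adjusted 0.0383 and 0.0268). Its r was 0.40 without those 2 libraries, and over the 26 libraries r was 0.50 and rho 0.57. Slc40a1 (r = -0.48, rho = -0.38) and Aco1 (r = -0.50, rho = -0.31) passed by r (permutation adjusted p = 0.0254 and 0.0248) and not by rho (0.0705 and 0.137).

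Tfrc passed by neither. It had r = -0.39 and rho = -0.20 with the index over 31 libraries (permutation p = 0.071 and 0.298, adjusted 0.0799 and 0.336), r = -0.065 without the 2 farthest, and r = -0.016 over the 26 libraries. The index had medians of -0.13 in daughters and -0.098 in sons of obesogenic dams, with overlapping ranges of -0.58 to 0.084 and -0.38 to 0.19. With the index taken out of every gene, an adjustment chosen after seeing the data, 0 of 36 pairs passed over 31 libraries. Over the 26, only Fth1 with Ftl1 passed, with r = 0.64 and rho = 0.63 (permutation p = 0.00130 and 0.00135, adjusted 0.0468 and 0.0486).

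**Figure D4:**
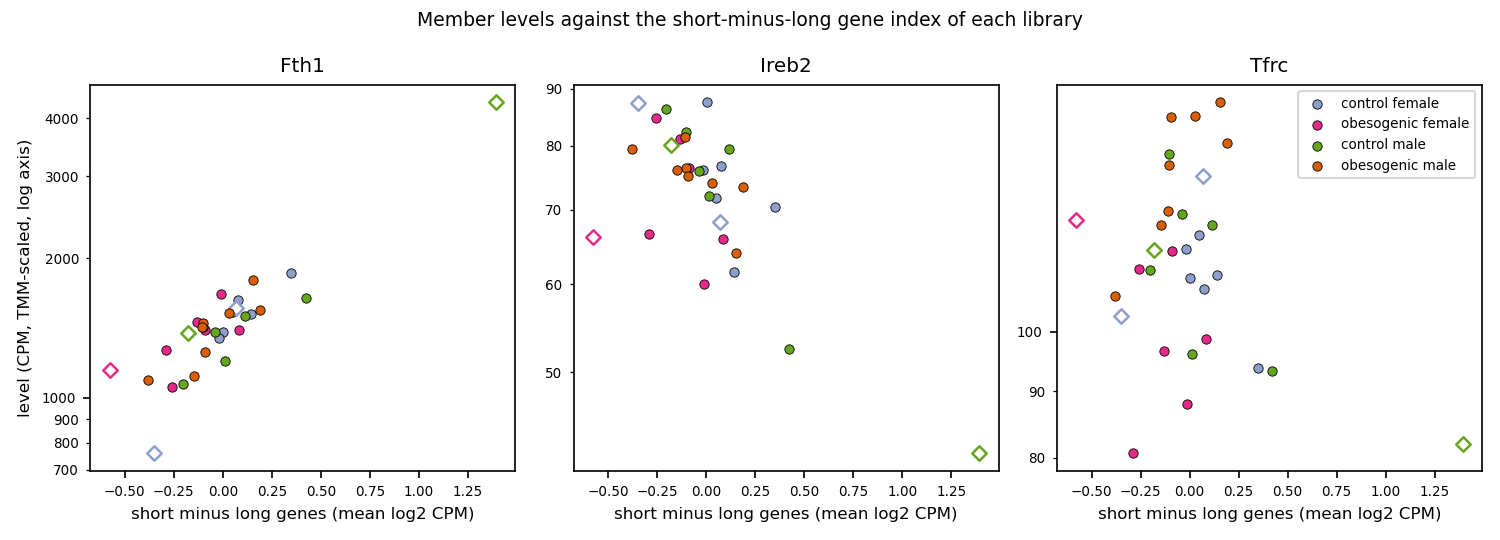
Levels of Fth1, Ireb2 and Tfrc (CPM after TMM scaling, log axis) against the mean log2 CPM of short minus long genes in each library, coloured by group, with open diamonds for libraries in doubt. Fth1 rises and Ireb2 falls along the index, with control male 6 at 1.39 on the far right, and Tfrc follows it less closely.

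The genes most like Tfrc within groups were ranked by Pearson's r of log2 CPM with group means removed, among 15045 genes with a symbol that is not a predicted or unnamed model, as a description. Over 31 libraries they were Alg6 (r = 0.77), Phf14 (0.73), Pkd2l2 (0.72), Bmx (0.71) and Zfp367 (0.71). Over the 26 libraries they were Arl4a (0.75), Tpm4 (0.73), Nudt4 (0.72), Gpcpd1 (0.70) and Btf3l4 (0.70). Pkd2l2 and Bmx were weakly counted, with group means of 0.33 to 0.59 CPM and 1.21 to 1.66 CPM. No gene was in both lists of 5, but Alg6 (r = 0.70) and Zfp367 (0.69) came close to the fifth place over the 26 libraries. Of the other 8 iron genes the most like Tfrc over 31 libraries was Slc11a2, with 313 of the 15045 genes more alike. Over the 26 libraries it was Ireb2 (r = 0.35), with 1053 more alike.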

How the data were processed

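The authors deposited raw counts of read pairs per gene. Per the file headers they were made with featureCounts 1.6.2 on Ensembl release 94 genes (GRCm38), which kept pairs mapped at both ends with a mapping quality of 10 or more and counted the reverse strand. Per the submitters' processing notes, reads were aligned with TopHat2 2.0.13. The command names neither multi-mapping nor overlapping reads, so pairs shared by near-identical or overlapping genes may be missing. The gene length column was deposited with the counts.

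The 31 libraries were grouped by the labelled maternal diet and sex. Counts were fitted with edgeR 4.0.16 in R 4.3.3: filterByExpr (18743 genes kept), TMM scaling, 1 mean per group, robust quasi-likelihood tests and Benjamini-Hochberg adjustment over all genes, threshold 0.05. CPM uses TMM-scaled totals except where library totals are named, and correlations use log2 CPM (prior count 2) and 100000 permutations within groups. DESeq2 1.42.0, limma 3.58.1 (voom with quality weights), sva 3.50.0, other filters and left-out libraries were alternatives. The fit was tested on simulated counts.

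The 9 genes and all lists were chosen with earlier results of these data known. Named besides them are, per list and tested comparison, genes past the threshold or otherwise those of smallest p, and the 5 genes most like Tfrc. Gene symbols matched 54409 of 54532 IDs, and 1 listed gene, Fam96b, was not matched by symbol. No pair of libraries agreed within sampling noise.

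Summed markers of the other 7 cell lists had group medians of 5253 to 5749 CPM for astrocytes, 623 to 675 CPM for oligodendrocyte precursors and 534 to 605 CPM for microglia. They were 1906 to 1985 CPM for hypothalamic neurons, 443 to 724 CPM for meningeal fibroblasts, 238 to 282 CPM for ependymal cells and tanycytes, and 302 to 347 CPM for olfactory bulb and telencephalon.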

Additional observations from a re-analysis of the deposited data

Results flagged for a closer look

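9 of 36 gene-by-group sets held a library far from the others by Dixon's test at the 95% level. Chance alone marks about 1 set in 20. 7 of the 9 were in libraries in doubt. In control male 6, Trf was at 54.96 CPM (others 7.43 to 13.9), Fth1 at 4336 CPM (others 1070 to 1645) and Ftl1 at 344.7 CPM (others 162.6 to 229.0). In the same library Slc11a2 was at 35.2 CPM (others 49.4 to 58.4) and Aco1 at 28.1 CPM (others 33.9 to 36.8). In control female 5, Trf was at 5.001 CPM (others 10.8 to 15.7) and Fth1 at 761 CPM (others 1348 to 1854). Obesogenic male 3, which was not in doubt, had the lowest Ireb2 of its group at 64.02 CPM (others 73.4 to 81.4) and the lowest Aco1 at 32.42 CPM (others 35.03 to 37.3). No Tfrc, Slc40a1 or Steap3 set was marked.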

How the results depend on the processing

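No paired analysis was possible because the labels give no replicate numbers, and those used here follow accession order. Between daughters and sons of control dams, the only comparison in which Tfrc was tested, its difference turned to -0.0545 without the 5 libraries in doubt, -0.0086 without the 2 against their sex label and -0.0231 without the 3 apart in correlation, and left-out libraries gave -0.030 to 0.071.

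By diet in daughters, 2 surrogate variables turned Trf to 0.0076, Slc11a2 to -0.0455, Fth1 to 0.0244 and Ftl1 to 0.0251, and limma voom turned Ireb2 to 0.0174. By diet in sons, Trf turned to 0.1267 with DESeq2, 0.1915 with voom, 0.229 with surrogate variables, 0.1267 without the 5 and 0.1377 without the 3. Fth1 turned to 0.0575 with voom, 0.0801 with surrogate variables, 0.031 without the 5 and 0.0235 without the 3. Ireb2 turned to -0.0418 with voom, -0.0379 with surrogate variables and -0.0173 without the 3. Aco1 turned to -0.0088 with surrogate variables and -0.0017 without the 3, and Steap3 to 0.0005 with surrogate variables and 0.0074 without the 5. Between daughters and sons of control dams Trf turned to 0.2389 with DESeq2, 0.3874 with voom, 0.2362 with surrogate variables, 0.3328 without the 5 and 0.3655 without the 3. With single libraries left out, the diet difference in sons ranged from -0.60 to 0.14 for Trf, -0.39 to 0.026 for Fth1, -0.013 to 0.12 for Ireb2 and -0.093 to 0.036 for Steap3, and the control sex difference of Trf from -0.49 to 0.26. In offspring of obesogenic dams it ranged from -0.0024 to 0.087 for Ftl1 and -0.027 to 0.10 for Steap3. The cause was not tested.

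Genes called over the whole table, 0 with edgeR and all libraries, were 6 by diet in daughters, 1 by diet in sons, 1 between the sexes in offspring of control dams and 6 in the interaction with DESeq2. Between the sexes in offspring of control dams they were 11 without the 5 and 10 without the 2, and 0 to 6 with single libraries left out. Between the sexes in offspring of obesogenic dams they were 12 with DESeq2, 2 with voom, 6 with surrogate variables, 12 with only the 2 groups, 14 without the 5, 9 without the 2, 1 without the 3, and 0 to 9 with single libraries left out. The 7 correlated pairs became 4 without the 5, 0 with the length index and 1 with both. Trf with Ftl1 turned to -0.2652 and Fth1 with Ftl1 to -0.0219 with the index, which was chosen after seeing the data. The number of libraries per group limits the precision of every difference.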
